A study of Gallus gallus with 65 samples.

Results

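BCL11A is a zinc finger transcription factor, and it was followed here over the recovery of the chick utricle from neomycin. Its probe was found by name: gene names on the array that begin with BCL11 gave 2 probes, BCL11A and its paralogue BCL11B, of 1507 gene probes. BCL11A was chosen by its ratio in these same samples, where it had stood out as higher after neomycin, so that its ratios are described below and not tested. BCL11B was taken by its name only, and its ratios were tested.

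The utricle is a balance organ of the inner ear, and its sensory epithelium holds hair cells and the supporting cells around them. Per the study's methods, utricles of post-hatch White Leghorn chicks (Gallus gallus) were cultured for 24 hr with neomycin, an antibiotic that kills hair cells, or without it. They were collected directly (0 hr) or after a further 24 or 48 hr of recovery without the drug. Each of 65 two-colour arrays compared RNA of neomycin-treated sensory epithelia with RNA of time-matched control epithelia, and the labels name 3 biological replicates at each of the 3 time points. The epithelia of a biological sample were pooled, the RNA was amplified in 2 rounds and then transcribed, and no animal was measured alone. The probes are 50-mers designed on human genes, printed as pairs of spots, so that chick RNA was read across species. How closely the human probe matches chick BCL11A or BCL11B was not examined.

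BCL11A and BCL11B are known from mammals as DNA-binding repressors that recruit larger chromatin complexes. BCL11A keeps fetal globin genes silent in adult red cells and is needed for B lymphocytes and for neurons of the brain and spinal cord. BCL11B is needed for T lymphocytes and for corticospinal neurons. Both bind the COUP-TF nuclear receptors, both bind the NuRD histone deacetylase complex, and both are counted as subunits of the SWI/SNF-type BAF remodelling complex.

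Each value below is a log2 ratio of neomycin over control, after background correction and loess within the array, so that 0 means equal signal and 1 a doubling. The neomycin RNA carried Cy3 on 34 arrays and Cy5 on 31 arrays, by the image names in the file headers. A replicate's value is the mean of both dye orientations. Over the arrays, the median spot had 1.96 times the signal of its surroundings in Cy3 and 1.69 times in Cy5. Arrays of opposite orientation and the same replicate had a median correlation of -0.06 across the 1281 probes tested (127 pairs, 14 of them below -0.3), after the ratios had been turned to neomycin over control. The direction of every ratio is the one given by the header names, and the deposited log2 ratios of all 65 arrays run the same way. The correlation between orientations cannot settle this direction, since it stays the same when every sign is turned. It bears only on whether both orientations were turned alike, and at -0.06 it does not show that. With every sign turned the means of BCL11A would read -0.45, -0.38 and -0.66 at 0, 24 and 48 hr. On 3 arrays the brightness pattern over the probes correlated under 0.5 with that of the other arrays (0 hr replicate 3, array 1 of each orientation, and 48 hr replicate 3, array 2 with neomycin in Cy5). Without these 3 arrays the BCL11A means were 0.49, 0.38 and 0.68, against 0.45, 0.38 and 0.66 with them.

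Both BCL11 probes were bright for this array, which describes the probe's signal and not the amount of its RNA against that of other genes. Brightness is the geometric mean of both dyes. Before background correction its median over arrays was 1454 for BCL11A, rank 152 of 1507 gene probes, and 2688 for BCL11B, rank 73. The median over all gene probes was then 634.8. After correction BCL11A was at 1026 (rank 150) and BCL11B at 2184 (rank 75). On single arrays the corrected rank ran from 20 to 1180 for BCL11A (median 206) and from 32 to 1496 for BCL11B (median 97). BCL11A was 0.91 to 48.0 times its local background in the neomycin channel (median 3.74) and 0.95 to 39.7 times in the control channel (median 2.81). For BCL11B these were 0.79 to 48.1 times (median 5.84) in the neomycin channel and 0.73 to 95.5 times (median 6.70) in the control channel. Neither probe had a spot at 0 or a spot marked as poor. Its own pair of spots gave BCL11A the same sign on 57 of 65 arrays, with a median difference of 0.09 between the spots. The spots lie side by side, so a fault that both share would not show in this difference. On some arrays the spots differed more, as at 1.79 and 0.22 in 24 hr replicate 1 and at 0.03 and 0.99 in 0 hr replicate 2.

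BCL11A was higher after neomycin in the mean at every time point. At 0 hr its log2 ratio averaged 0.45 ± 0.47, or 1.37-fold (SD, n = 3 replicates). At 24 hr the average was 0.38 ± 0.22, or 1.30-fold, and at 48 hr it was 0.66 ± 0.49, or 1.58-fold. The order of the means was 48 hr, 0 hr and 24 hr, but the replicates of all 3 time points overlapped. The 48 hr mean lay 0.21 above the 0 hr mean and 0.28 above the 24 hr mean, both less than the 0.41 by which replicates of a time point spread (pooled SD).

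The ratio was above 0 in 9 of 9 replicates, though in 0 hr replicate 2 only 5 of 11 arrays were above 0. At 0 hr replicates 1, 2 and 3 were at 0.96, 0.05 and 0.34. At 24 hr they were at 0.33, 0.19 and 0.63. At 48 hr they were at 1.16, 0.66 and 0.17. One replicate stood high at 0 hr, and at 48 hr the replicates spread over a similar width. Without 0 hr replicate 1 the mean of that time was 0.20 (rank 56), and without 48 hr replicate 1 the 48 hr mean was 0.41 (rank 17). Of the probes tested, 25 (1.95%) were above 0 in all 9 replicates, and none had a larger mean over the 3 time points than BCL11A (0.50). Nothing is read from these shares, since BCL11A was selected on the same ratios.

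**Figure D1:**
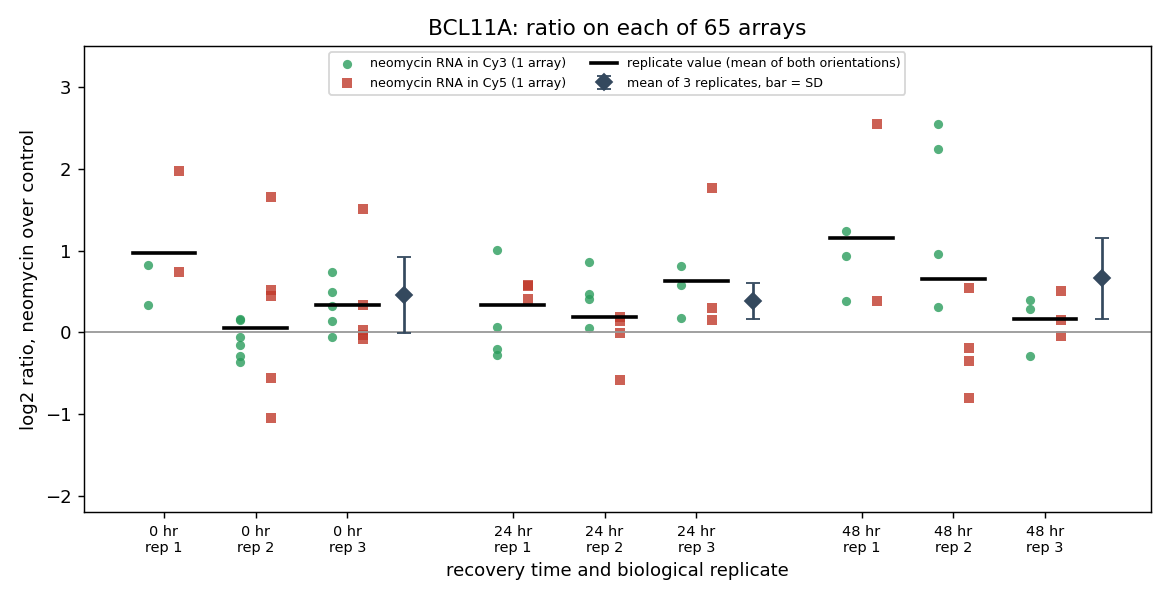
BCL11A log2 ratio of neomycin over control (vertical axis) on each array, by recovery time and biological replicate. Circles are arrays with neomycin RNA in Cy3, squares arrays with it in Cy5, short lines the replicate values and diamonds the mean of 3 replicates with SD; the replicate values run from 0.05 (0 hr replicate 2) to 1.16 (48 hr replicate 1), all above 0, while single arrays run from -1.05 to 2.55.

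Single arrays of a replicate spread widely. Their SD cannot be set against that of the replicates, since each replicate value is a mean over several arrays. The pooled SD of arrays within a replicate and dye orientation was 0.63 (65 arrays in 18 such groups), and 47 of 65 arrays were above 0. In 0 hr replicate 1 all 4 arrays were above 0, at 0.82 and 0.34 with neomycin in Cy3 and at 0.73 and 1.97 with neomycin in Cy5. In 0 hr replicate 2 the 6 arrays with neomycin in Cy3 ran from -0.37 to 0.16 and 2 of them were above 0. The 5 with neomycin in Cy5 were at -0.56, -1.05, 1.66, 0.51 and 0.44. The value near 0 of this replicate was therefore a mean over arrays on both sides of 0. On its highest array, at 1.66, the BCL11A probe ranked only 992 by background-corrected brightness. It lay at -0.25 on the log2 scale over the median probe there, and its ratio ranked 103. In 0 hr replicate 3 the arrays were at -0.06, 0.13, 0.74, 0.32 and 0.49 with neomycin in Cy3, and at -0.08, 0.34, 0.03, -0.03 and 1.51 with neomycin in Cy5. The values of -0.06 and -0.08 came from the 0 hr arrays with another brightness pattern, on which the BCL11A probe ranked 851 and 1095 by background-corrected brightness.

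At 24 hr the 3 replicates differed in how well their arrays and orientations matched. In 24 hr replicate 1 the arrays were at 0.06, -0.27, -0.21 and 1.00 with neomycin in Cy3, and at 0.41, 0.57 and 0.58 with neomycin in Cy5. The 1.00 was the mean of spots at 1.79 and 0.22. The arrays at 0.06, -0.21, 0.41 and 0.58 had another print design than all other arrays of the series, so this design occurred in this replicate only. In 24 hr replicate 2 the arrays were at 0.47, 0.85, 0.41 and 0.06 with neomycin in Cy3, and at -0.58, 0.14, -0.01 and 0.18 with neomycin in Cy5. The positive value of this replicate came from the Cy3 orientation alone. In 24 hr replicate 3 all 6 arrays were above 0, at 0.17, 0.57 and 0.81 with neomycin in Cy3 and at 0.30, 0.15 and 1.76 with neomycin in Cy5. The lowest array of 24 hr replicate 1, at -0.27, was also the one where BCL11A did not stand above its background, at 0.91 times in the neomycin channel and 0.95 times in the control channel.

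At 48 hr the highest arrays of the course were found. In 48 hr replicate 1 all 5 arrays were above 0, at 0.38, 0.93 and 1.23 with neomycin in Cy3 and at 2.55 and 0.38 with neomycin in Cy5. The 1.23 came from an array whose image name marks its Cy5 scan as poor, and without it the 48 hr mean was 0.63. In 48 hr replicate 2 the arrays were at 2.24, 0.31, 0.96 and 2.55 with neomycin in Cy3, but at -0.19, 0.54, -0.80 and -0.35 with neomycin in Cy5. Here the orientations gave opposite signs, with means of 1.51 and -0.20. In 48 hr replicate 3 the arrays were at 0.39, 0.28 and -0.29 with neomycin in Cy3, and at 0.51, -0.04 and 0.16 with neomycin in Cy5. On the array at -0.04 the brightness pattern matched the other arrays better with the spot grid moved by 1 row (r = 0.14 as given, 0.60 moved). With the grid moved, its BCL11A value was 0.16 and its brightness rank 150 in place of 681, and the 48 hr mean was 0.67. The BCL11B value of this array went from 0.39 to -0.12 when the grid was moved. The BCL11B values and tests below keep the grid as given.

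In each dye orientation alone the means were above 0 at every time point. With neomycin in Cy3 they were 0.27 ± 0.34 at 0 hr, 0.37 ± 0.20 at 24 hr and 0.83 ± 0.69 at 48 hr (SD, n = 3 each). With neomycin in Cy5 they were 0.63 ± 0.63, 0.40 ± 0.42 and 0.49 ± 0.87 in the same order of times. By replicate, 8 of 9 were above 0 with neomycin in Cy3 and 7 of 9 with it in Cy5. By array these were 26 of 34 and 21 of 31. Between the orientations 3 of 9 replicates changed sign, namely 0 hr replicate 2, 24 hr replicate 2 and 48 hr replicate 2. All 3 carry the number 2, and the labels do not say whether a replicate number links samples across times.

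The part of the ratio that follows the dye and not the treatment was tested, since it did not serve to choose the gene. This dye part is the mean Cy5 over Cy3 log2 ratio of both orientations, in which the treatment cancels. For BCL11A it averaged 0.01 (SE 0.10, 95% interval -0.21 to 0.23, n = 9 replicates), with an adjusted p of 0.984 in limma. For BCL11B it averaged -0.26 (SE 0.09, interval -0.45 to -0.07), with an adjusted p of 0.300 in limma. Neither was called at an adjusted p under 0.05, against 1.25% of the probes tested. Within single replicates the dye part of BCL11A was larger than its mean, with 0.39 in 0 hr replicate 1 and -0.86 in 48 hr replicate 2 as the extremes. BCL11B was called (adjusted p 0.00813) when the arrays were taken as independent samples.

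In intensity, BCL11A varied more between replicates than between treatments. The level of each RNA is given relative to the median gene probe of its array, as the mean of both orientations on the log2 scale. At 0 hr it was 3.95, 1.38 and 0.71 for neomycin, against 2.99, 1.33 and 0.37 for control, in replicates 1, 2 and 3. At 24 hr it was 1.83, 2.30 and 1.12 for neomycin, against 1.49, 2.12 and 0.49 for control. At 48 hr it was 2.29, 2.49 and 0.76 for neomycin, against 1.13, 1.83 and 0.59 for control. Both levels of a pair are built from the replicate's brightness and its log2 ratio. That neomycin was above control in each pair therefore only restates that the ratio was above 0. In signal before correction and loess, neomycin was below control in 0 hr replicate 3 (1237 against 1390) and 48 hr replicate 3 (1277 against 1300). It was above control in the other replicates. By level, 0 hr replicate 1 was brighter in both channels than all other replicates, at 15.5 times the median probe for neomycin and 7.92 times for control. Replicate 3 was the dimmest of its time point in both channels at 0, 24 and 48 hr.

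**Figure D2:**
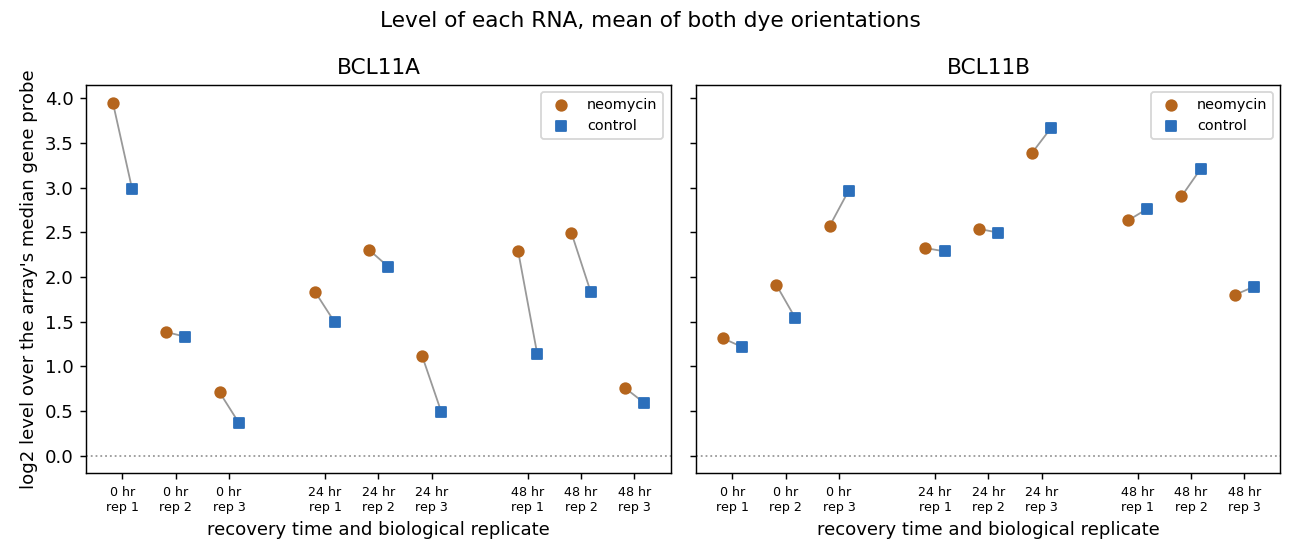
Log2 level of BCL11A (left panel) and BCL11B (right panel) over the median gene probe of the array (vertical axis), for neomycin RNA (circles) and control RNA (squares) of each biological replicate, each point the mean of both dye orientations. The levels are built from brightness and ratio, so neomycin lies above control wherever the ratio is above 0, in all 9 replicates for BCL11A and in 4 of 9 for BCL11B. For BCL11A 0 hr replicate 1 is highest at 3.95 and 2.99.

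The brightness of both dyes together, after background correction, was tested between time points. For BCL11A it lay at 1.79 ± 1.51 at 0 hr, 1.56 ± 0.71 at 24 hr and 1.52 ± 0.76 at 48 hr on the log2 scale over the median probe (SD, n = 3 each). The differences of 24 minus 0 hr (-0.23, 95% interval -1.90 to 1.44) and 48 minus 0 hr (-0.27, interval -1.94 to 1.40) were not called, with adjusted p of 0.998 and 0.990 in limma. BCL11B lay at 1.92 ± 0.77, 2.78 ± 0.65 and 2.53 ± 0.62. Its differences of 0.86 (interval -0.26 to 1.99) for 24 minus 0 hr and 0.61 (interval -0.52 to 1.74) for 48 minus 0 hr were not called either, with adjusted p of 0.998 and 0.983. Without 1 replicate the BCL11B differences ran from 0.49 (without 24 hr replicate 3) to 1.29 (without 0 hr replicate 3), and from 0.29 (without 0 hr replicate 1) to 1.04 (without 0 hr replicate 3). Over all probes limma called 0 (0%) in each of these comparisons, with 7 and 26 at an unadjusted p under 0.05. The intervals are wide, and a change of brightness by 2-fold in either direction lies within them for BCL11A.

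Among all probes tested, the mean ratio of BCL11A held rank 3 of 1281 directly after treatment, rank 3 after 24 hr of recovery and rank 6 after 48 hr. At 48 hr it stood directly below SMARCA4 (0.71 ± 1.05), an ATPase of the BAF complex. The median probe was at -0.01, 0.00 and 0.01. Past 1.2-fold higher, the limit of fold used by the study, were 2.42% of the probes at 0 hr, 2.03% at 24 hr and 2.73% at 48 hr, BCL11A among them each time. By replicate its rank was less steady. Replicates 1, 2 and 3 gave ranks 1, 525 and 40 for 0 hr, ranks 26, 141 and 17 for 24 hr and ranks 4, 7 and 221 for 48 hr. These ranks too are a description of a gene selected on such values.

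**Figure D3:**
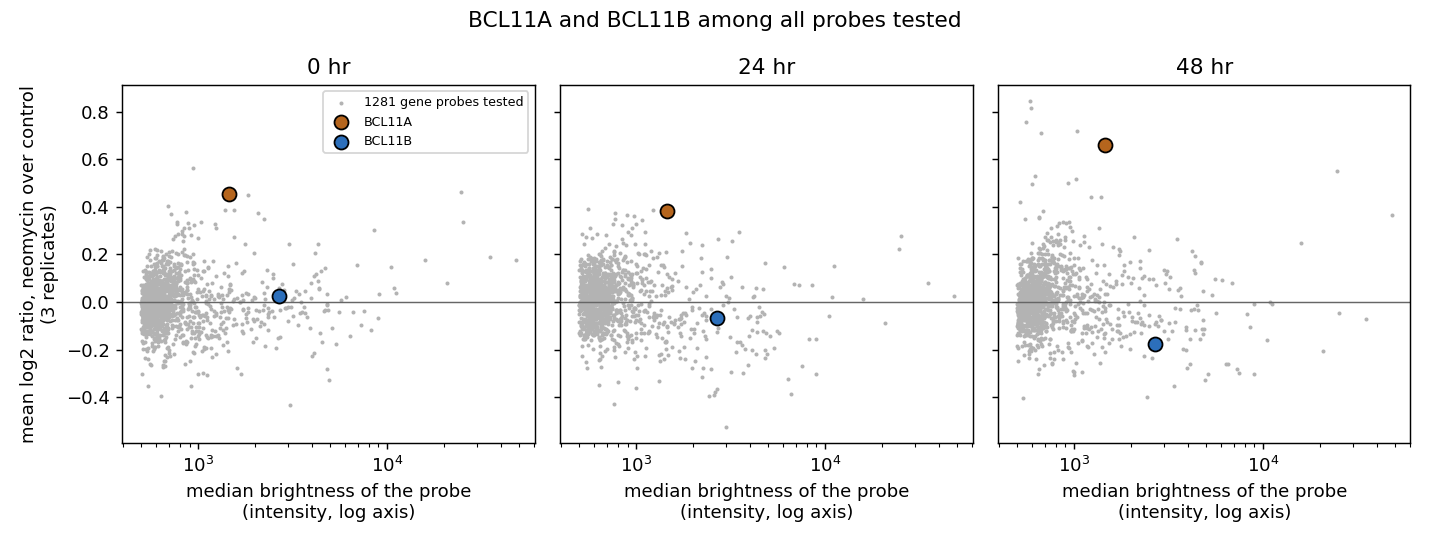
Mean log2 ratio of neomycin over control in 3 replicates (vertical axis) against median brightness (horizontal log axis) for the 1281 gene probes tested, at 0, 24 and 48 hr. BCL11A, at 0.45, 0.38 and 0.66, lies near the upper edge of the probes in each panel. BCL11B, at 0.02, -0.07 and -0.18, holds ranks 482, 977 and 1214 of 1281 counted from the highest ratio.

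Position on the slide and the day of the scan were looked at beside the ratio. The 10 spots that surround the BCL11A pair had median log2 ratios between -0.11 and 0.19 in the 9 replicates. BCL11A itself was at 0.05 to 1.16 in them. On single arrays the median of these spots ran further, from -0.56 to 0.52. The lowest was on an array with BCL11A at 0.06 (24 hr replicate 2). The highest was on the array with BCL11A at 1.66 (0 hr replicate 2). The scans fell on 16 days by the image names, and 4 of these days held arrays of 2 time points. On the first of them (replicate 3) BCL11A was at 0.21 at 0 hr and 0.30 at 24 hr, with 4 arrays each. On the second, also of replicate 3 and with 2 arrays at each time, it was at 1.12 and 1.29. The same replicates thus had values further apart between these days than between the times. On the third such day, of replicate 2 and with 4 arrays at each time, BCL11A was at 0.22 after 24 hr of recovery and 0.73 after 48 hr, and on the fourth, likewise, at 0.16 and 0.59. Within each of the 4 days the later time had the higher ratio. The first 2 days held arrays of the same samples, and so did the last 2, so these are not 4 independent comparisons. On the fourth day the rise was in the Cy3 orientation only. With neomycin in Cy5 the arrays of that day were at -0.01 and 0.18 at 24 hr, but at -0.80 and -0.35 at 48 hr. Over all replicates the 24 hr mean (0.38) was below the 0 hr mean (0.45). Nothing is read from these days, since BCL11A was selected on the same ratios. With the scan day as a random block over single arrays, the means of BCL11A were 0.32, 0.35 and 0.62.

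For the paralogue BCL11B the replicates lay on both sides of 0, and 4 of 9 were above it. Its 3 replicates averaged 0.02 ± 0.39 (SD) for 0 hr, -0.07 ± 0.19 for 24 hr and -0.18 ± 0.11 for 48 hr. At 0 hr replicates 1, 2 and 3 were at 0.10, 0.38 and -0.40. At 24 hr they were at 0.04, 0.04 and -0.28. At 48 hr they were at -0.13, -0.31 and -0.09, so that all 3 were below 0 at 48 hr only, while the replicates of the times overlapped.

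None of the BCL11B ratios was called. The 95% interval ran from -0.24 to 0.29 at 0 hr, from -0.34 to 0.20 at 24 hr and from -0.44 to 0.09 at 48 hr, with adjusted p of 0.997, 0.942 and 0.814 in limma. Over all probes tested limma called 0 (0%) at each time point, with 82, 76 and 95 at an unadjusted p under 0.05. Over the 9 replicates the ratios of BCL11B and BCL11A had a Pearson r of -0.30, which is a description over values from the same arrays.

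The ratio of BCL11B moved with the dye orientation. With neomycin in Cy3 it averaged 0.20 ± 0.07 at 0 hr, 0.42 ± 0.15 at 24 hr and -0.06 ± 0.24 at 48 hr (SD, n = 3 each). With neomycin in Cy5 it averaged -0.15 ± 0.81, -0.55 ± 0.22 and -0.30 ± 0.45. The signs differed between orientations in 7 of 9 replicates. At 24 hr 10 of 11 arrays were above 0 with neomycin in Cy3 and 0 of 10 with neomycin in Cy5. Its brightest spot, at an intensity of 46933, was that of the control RNA on an array of 0 hr replicate 3.

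**Figure D4:**
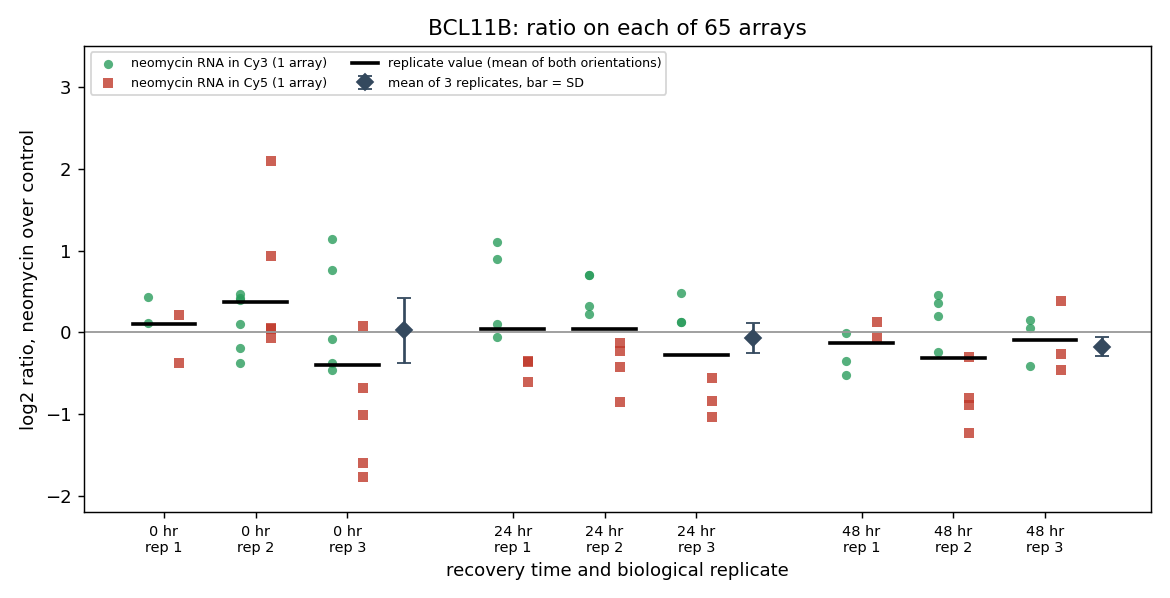
BCL11B log2 ratio of neomycin over control (vertical axis) on each array, by recovery time and biological replicate, with the same symbols as in the plot for BCL11A. The replicate values lie between -0.40 and 0.38, and at 24 hr the arrays with neomycin in Cy3 lie mostly above 0 and those with neomycin in Cy5 all below 0.

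The partners of BCL11 proteins were described as 3 lists. Of 13 NuRD genes 6 were on the array and tested, of 18 BAF genes 9, and of 3 COUP-TF genes 3 were on the array and 1 was bright enough to test. None of these tested partners was called at 0, 24 or 48 hr. Of all 1281 probes tested 0 (0%) were called at each of these times, so nothing about the partners is read from this. The smallest adjusted p among the partners was 0.597 in limma.

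For the NuRD genes the median log2 ratio over the course was 0.01, -0.01 and 0.01. The highest at 48 hr was MTA1 (0.17 ± 0.42) and the lowest MTA2 (-0.07 ± 0.02), which are paralogous subunits of the complex. The median of the BAF genes was -0.02, -0.01 and 0.13, and 8 of 9 were above 0 at 48 hr, where 52.8% of all probes tested were above 0. The highest was SMARCA4 (0.71 ± 1.05) and the lowest the core subunit SMARCB1 (-0.07 ± 0.18). The COUP-TF receptor NR2F2 was at 0.11, 0.04 and 0.04. The median of all probes tested was 0.01 at 48 hr, and nothing is called particular to these lists.

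Markers of the cell types that the tissue holds or could carry were read by brightness before background correction. The limit for testing cuts off the dimmest 15% of gene probes and is not a limit of detection. These values therefore do not show whether a cell type was present or absent. Of the hair cell list, ATOH1 (799.8) and BARHL1 (779.9) were bright enough to test, and POU4F3 (446.0) and GFI1 (478.8) were under the brightness limit for testing of 499.3. Of the supporting cell list SOX2 was bright (1746), HEYL was at 1497, HEY1 at 1051 and HEY2 at 642.9. PROX1 (419.8) was under the limit. For blood cells, in which BCL11A and BCL11B are best known, 10 of 14 listed genes were on the array, between 388.2 (MYB) and 1042 (SPI1), and 8 were tested. For neurons 6 of 7 were on the array, between 556.9 (TBR1) and 1075 (POU4F1). For stroma 3 of 5 were on the array, between 428.1 (POU3F4) and 994.9 (PRRX1). For Schwann cells 2 of 3 were on it, at 499.5 (EGR2) and 559.5 (SOX10).

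No marker was called at 0, 24 or 48 hr, where 0 (0%) of all 1281 probes tested were called, so nothing about the markers is read from this. The median log2 ratio of the neuron list was 0.07, 0.08 and 0.05. Of its 6 genes 5, 4 and 6 were above 0 at 0, 24 and 48 hr, against 48.2%, 52.0% and 52.8% of all probes tested, and the lowest at 48 hr was POU4F1 at 0.000932. In the same order of times 2, 4 and 5 of 8 blood genes tested were above 0. For supporting cells these counts were 1, 3 and 1 of 4, and for hair cells 1, 2 and 1 of 2. For stroma they were 0, 2 and 0 of 2, and for Schwann cells 0, 1 and 1 of 2. For the cell cycle genes they were 3, 2 and 4 of 5. The median of the blood list was -0.08, 0.00 and 0.02. For supporting cells it was -0.03, 0.12 and -0.07, for hair cells -0.02, 0.03 and -0.01, for stroma -0.08, 0.06 and -0.06, for Schwann cells -0.09, 0.04 and 0.00, and for the cell cycle genes 0.00, 0.00 and 0.05. Fewer cells of a type and less RNA per cell cannot be told apart in these pooled epithelia, and the part of cell numbers in the BCL11A ratio was not tested.

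Among the 5 probes whose 9 replicate ratios were most like those of BCL11A were NR2E1 (Pearson r 0.90), HYPH (0.88), GTF2H2 (0.88) and FLJ10469 (0.87). NR2E1 is an orphan nuclear receptor of neural progenitors and GTF2H2 is a subunit of the general factor TFIIH. The likeness is one of pattern and not of level. HYPH was above 0 in 0 hr replicate 1 (0.10) and 48 hr replicate 1 (0.16) only. NR2E1 was closer to BCL11A in size, at 0.81 in 0 hr replicate 1 and 1.91 in 48 hr replicate 1, but was at -0.11 in 48 hr replicate 3. All 5 share the arrays of BCL11A. Between 0 and 5 of them were found again in 19 alternative settings, and 0 in each dye orientation alone.

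**Figure D5:**
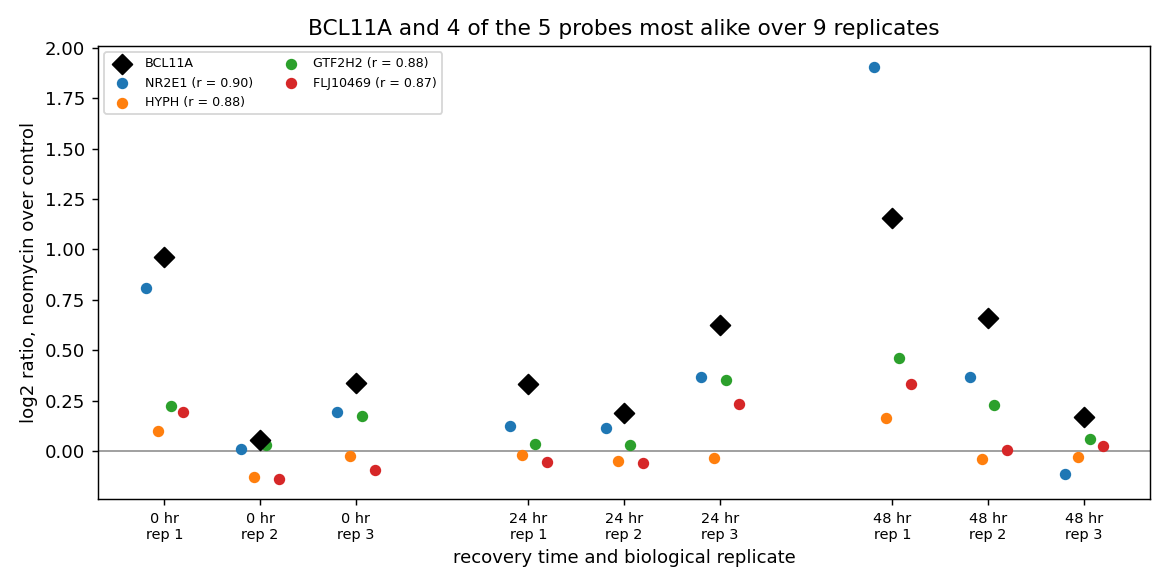
Log2 ratio of neomycin over control (vertical axis) in the 9 biological replicates for BCL11A (diamonds) and 4 of the 5 probes with the highest Pearson r to it (circles, shifted sideways for view). BCL11A and NR2E1 are highest in 0 hr replicate 1 (0.96 and 0.81) and 48 hr replicate 1 (1.16 and 1.91), while HYPH stays between -0.13 and 0.16.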

How the data were processed

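RNA of chick utricle sensory epithelia was compared on 65 two-colour arrays, in 9 biological replicates. The authors deposited 130 scanner files with the mean intensity of each spot and its background, written by ImaGene 4.1 per the file headers and not normalized. The deposited series matrix holds log2 ratios that equal neomycin over control foreground, with dyes taken from the headers (largest difference 5.33e-15). Per the methods, the authors normalized by LOWESS and removed dim probes, and those values were not used here.

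Intensities were corrected with normexp (offset 50) and normalized within arrays by global loess in limma 3.58.1 (R 4.3.3), with the 27 names of no gene at weight 0. Spots marked as poor (8 on 2 arrays) were left out. Duplicate spots were averaged, then the arrays of a dye orientation, then both orientations. The dimmest 15% of gene probes by uncorrected brightness (226 probes, under 499.3) were removed, which left 1281. Replicate values were fitted with 1 coefficient per time point (lmFit, eBayes, two-sided). Calls needed a Benjamini-Hochberg adjusted p below 0.05. The number of replicates limits the precision.

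BCL11A and BCL11B were given with all values. Of each partner list the text names the highest and the lowest member at 48 hr, and it names probes most like BCL11A over the replicates (of the highest 5) and next to it by mean ratio at 48 hr. Some items that this rule names are not reported here. Marker genes named by brightness were chosen after their values were seen. The members and lists were chosen with earlier results of these data known. In data simulated for the ratio at 48 hr (1281 probes, 200 of them changed), the fit recovered 46.9% of changes of 1.2-fold and 92.9% of 1.5-fold. It made 10 false calls. The simulated noise was normal and independent between probes, and simulated arrays of a replicate differed by dye alone. The real arrays of a replicate differed more, so these shares do not carry over to the data and say nothing about the absence of calls. Of 9 pairs of same-numbered replicates, the deviations of 2 correlated above 0.1. Arrays of the same replicate in opposite orientation correlated at a median of only -0.06, so this cannot decide whether the numbers pair samples. The labels do not say so, and the numbers were not taken to pair samples. The alternatives were those of the background correction, normalization, filter, spots, dye orientation, model, direction and samples.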

Additional observations from a re-analysis of the deposited data

How the results depend on the processing

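The means of BCL11A stayed above 0 in 32 of 33 alternatives, with 0.20 to 0.65 at 0 hr, 0.23 to 0.48 at 24 hr and 0.41 to 0.94 at 48 hr. The exception was the turned sign (-0.45, -0.38 and -0.66), which took BCL11B to -0.024, 0.068 and 0.18. Nothing is read from this count, since BCL11A was selected on the same ratios. Several settings could not change a mean, such as the brightness filters, the replicate block and a left-out replicate of another time. With all replicates above 0, leaving out 1 replicate could not turn the sign. Leaving out 1 replicate gave BCL11A 0.20 to 0.65, 0.26 to 0.48 and 0.41 to 0.91. Its rank ran from 2 to 56, 2 to 40 and 2 to 18 over the settings. With the replicate number as a replicate block its means were 0.45, 0.38 and 0.66, those of BCL11B 0.02, -0.07 and -0.18, and 26 probes had a dye part called in place of 16. The replicate block changed no call of a BCL11 probe.

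The 0 hr ratio of BCL11B, close to 0, changed sign with plain background subtraction (-0.020), median centring (-0.12), scale normalization (-0.030), neomycin in Cy5 only (-0.15), the median over arrays (-0.10), arrays as independent (-2.42e-05) and the series matrix (-0.18), and ran from -0.15 to 0.24 without 1 replicate. Its 24 hr ratio was 0.42 with neomycin in Cy3 only and -0.12 to 0.039 without 1 replicate. Its 48 hr ratio was not called in any of the 33 alternatives, the moved grid among them (smallest adjusted p 0.531 in limma). The dye part of BCL11A changed sign with plain subtraction (-0.043), median centring (-0.017), print-tip loess (-0.044), the median over arrays (-0.025), arrays as independent (-0.033), the replicate as a random block (-0.024) and without the 4 arrays of the other print design (-0.000885), and ran from -0.039 to 0.12 without 1 replicate. That of BCL11B was -0.28 and called with arrays as independent. The brightness of BCL11A at 24 against 0 hr was 0.13 with plain subtraction, 0.30 with neomycin in Cy5 only and -0.86 to 0.61 without 1 replicate. At 48 against 0 hr it was 0.014 with neomycin in Cy5 only and -0.89 to 0.57 without 1 replicate. The lowest came without 0 hr replicate 3 and the highest without 0 hr replicate 1. The causes were not tested.

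Over all probes, limma called 5 at 0 hr and 4 at 48 hr with arrays as independent, 5 and 6 with the replicate as a random block, and 17 and 9, with 1 partner probe at 48 hr, with the scan day as a random block. These fits took the 65 arrays and not the biological replicates as units, so repeat arrays of the same samples can add to the calls. At 24 hr limma called 1 with no background correction, plain subtraction, the second spot only, the median over arrays or without the other print design, and 2 with neomycin in Cy5 only. Without the array marked as a poor scan it called 1 at 0 hr. Leaving out 1 replicate gave 0 to 1, 0 to 0 and 0 to 3 at 0, 24 and 48 hr. A dye part was called for 0 probes with plain subtraction, median centring, scale normalization, the median over arrays or without the poor scan, for 32 with print-tip loess, 94 with arrays as independent, 1 with the series matrix, and 0 to 19 without 1 replicate. The scan day, the moved grid, the other print design and the poor scan were tried after seeing the data. Signal over background limits the single arrays: the corrected brightness of BCL11A was under 1000 on 31 of 65.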
